A study of Mus musculus with 4 samples.

Results

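The collagen gene family was profiled in single cells of the mouse fracture callus. Its members were the genes whose symbol is Col, a type number, the letter a and a chain number, which selected 44 of the 32285 genes in the count tables. They were grouped by the kind of assembly their chains form. There were 11 fibril-forming chains, 9 network-forming chains (types IV, VIII and X), 9 fibril-associated chains with interrupted triple helices (FACIT; types IX, XII, XIV, XVI, XIX, XX and XXII), 6 type VI chains and 9 chains of other types. The rule used symbols only and no level, but the members were chosen with earlier results of these data known.

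Collagens are trimers of alpha chains wound into a triple helix, and several types are built from the products of more than 1 gene. Types I, III and V make up the fibrils of bone, skin and fibrous tissue, while types II, IX, X and XI belong to cartilage, and type X marks hypertrophic chondrocytes. Type IV chains form the sheets of basement membranes under endothelium and around muscle and nerve. Type VI chains form beaded microfilaments around cells, and FACIT chains sit on the surface of fibrils. A fracture callus passes through fibrous and cartilaginous stages before bone replaces them, so that its collagens change with time.

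The callus came from right tibial fractures of male C57BL/6J wild-type mice that were 3 months old. Control mice received Vehicle (PBS), and RA mice received K/BxN serum, an arthritogenic serum that is injected intraperitoneally and passes on an inflammatory arthritis. Callus was scraped along the periosteal surface at 4 or 7 days post fracture (dpf), digested with Collagenase P and pooled. The deposited labels give 4 calluses per pool, whereas the methods text gives 3. Each of the 4 conditions, control and RA at 4 dpf and control and RA at 7 dpf, had 1 droplet library with 3' tags. No condition was replicated, so no test between conditions was possible, and differences between conditions cannot be told apart from differences between pools or libraries.

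After filtering, 5470 cells of control and 4110 of RA at 4 dpf and 7676 and 8223 cells at 7 dpf were kept, with median depths of 16093.5 to 17631.5 unique molecular identifiers (UMIs) per cell. Pairs of libraries shared 5 to 15 cell barcodes, or 0.122% to 0.292% of the smaller library. Cells were clustered without the collagen genes among the variable genes, and clusters were named from markers that held no collagen gene, which gave 20 classes of at least 50 cells. The ending "-like" says that a class was named by such markers. The mesenchymal sum pooled 7 classes, namely committed progenitor-like, fibroblast precursor-like, fibroblast-like, chondrocyte-like, osteochondral-like, cycling mesenchymal and unnamed mesenchymal cells. It held 804 cells of control and 691 of RA at 4 dpf, and 2769 and 3498 cells at 7 dpf, with 25403686 and 21626051 UMIs at 4 dpf and 71181378 and 88413970 at 7 dpf. Levels are UMI counts summed over the cells of a class in a library and scaled to a total of 1e6 (CPM). Since a 3' library yields 1 tag per molecule, levels can be compared between genes without a length correction. All 4 mesenchymal lineage markers reached 10 CPM in the mesenchymal sum. The summed level of the 7 macrophage markers was 34.6 to 65.1 CPM, with 2 of the 7 at 10 CPM or more. Other lists were higher, with 646 to 861 CPM for the 5 monocyte markers, 2 of them at 10 CPM or more. The 5 osteoclast markers gave 309 to 534 CPM (3 at 10 CPM or more) and the 4 erythroid markers 23.2 to 462 CPM (2). The source of these UMIs was not tested. Because UMIs were summed over cells, fewer expressing cells and less RNA per cell cannot be told apart in a summed level.

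Collagen transcripts took up a large part of the mesenchymal transcriptome. They were 5.2% of all mesenchymal UMIs in control and 4.29% in RA at 4 dpf, and 5.46% and 6.78% at 7 dpf. RA thus had the lower share at 4 dpf and the higher share at 7 dpf. The chondrocyte-like cells reached the highest share of any class, 8.59% in control and 8.1% in RA at 7 dpf, when they were numerous enough to be measured. Tenocyte-like cells gave 5.03% in control and 3.23% in RA at 4 dpf and 6.08% and 5.75% at 7 dpf, a lower value in RA at both times. Mural-like cells lay between 0.893% and 1.75%, blood endothelial-like cells between 0.404% and 0.598%, and macrophage-like cells between 0.0212% and 0.104%. Of all collagen UMIs in the kept cells, 78.8% to 86.3% lay in the mesenchymal sum, depending on the library.

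**Figure D1:**
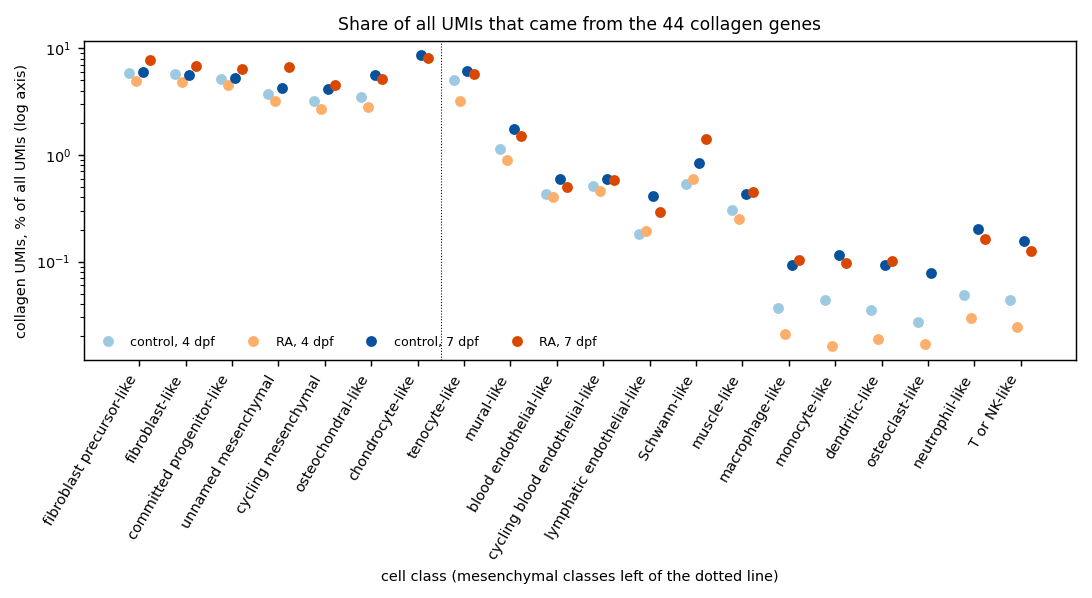
Share of all UMIs that belonged to the 44 collagen genes (y axis, percent, log axis) in each of the 20 cell classes (x axis), with 1 point per library and the mesenchymal classes left of the dotted line. The highest points are the chondrocyte-like cells at 8.59% and 8.1%, and the macrophage-like cells lie at 0.0212% to 0.104%.

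Type I and type III genes made up most of this output. Col1a1, Col1a2 and Col3a1 gave 24.6%, 24.7% and 33.7% of the mesenchymal collagen UMIs in control at 4 dpf, and 23.3%, 24.9% and 32.7% in RA at 7 dpf. On another base, that of all mesenchymal UMIs in control at 7 dpf, the fibril-forming chains took 4.74% and all 6 type VI chains together 0.415%. The FACIT chains took 0.211% of these UMIs, the network-forming chains 0.0741% and the other types 0.0234%. Of the 44 members, 39 reached 20 CPM in at least 1 class and library and are described by value. The remaining members, Col4a3, Col4a4, Col4a6, Col6a4 and Col17a1, had a highest level of 3.46 to 19.8 CPM, and none of the 44 was without a UMI.

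Collagen RNA was also counted in cells that are not known for making it. Macrophage-like cells carried Col1a1 at 84.3 CPM in control and 55.7 CPM in RA at 4 dpf, and at 226 and 213 CPM at 7 dpf. Among the 23 members with at least 100 CPM in the 7 dpf mesenchymal sums, the macrophage-like level was 1.28% to 6.57% of the mesenchymal one. For Col2a1 at 7 dpf, after thinning every cell to 4000 UMIs, a UMI was found in 17.3% of macrophage-like cells in control and 17.0% in RA, against 38.1% and 36.6% before thinning, at median depths of 10949.0 and 11460 UMIs. The thinned share in fibroblast-like cells was 8.61% in control and 10.5% in RA, at median depths of 21716.5 and 21907 UMIs, and so lay below that of macrophage-like cells. A level near the macrophage-like one is called background here and is not read as expression. The source of these UMIs was not tested, and the shares of cells given in this paragraph cover Col2a1 only. Depth differed between classes, so the macrophage-like CPM is a rough limit for deeper cells.

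Each structural group split over several cell classes. By the mean level over libraries, 9 of the 39 described members were highest in chondrocyte-like cells, 5 in tenocyte-like cells, 4 each in committed progenitor-like and fibroblast precursor-like cells, and 3 each in osteochondral-like, unnamed mesenchymal, cycling blood endothelial and Schwann cell-like cells. Mural and muscle cell-like cells were highest for 2 members each, and lymphatic endothelial-like cells for 1. Chondrocyte-like cells entered this ranking from the 7 dpf libraries only, because they numbered 13 in control and 9 in RA at 4 dpf. Osteochondral-like cells entered at both times, but with only 29 control and 26 RA cells at 4 dpf. Without integration, no cluster named by chondrocyte or osteoblast markers held a 4 dpf cell. The 4 dpf levels of osteochondral-like cells thus rest on the integration.

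**Figure D2:**
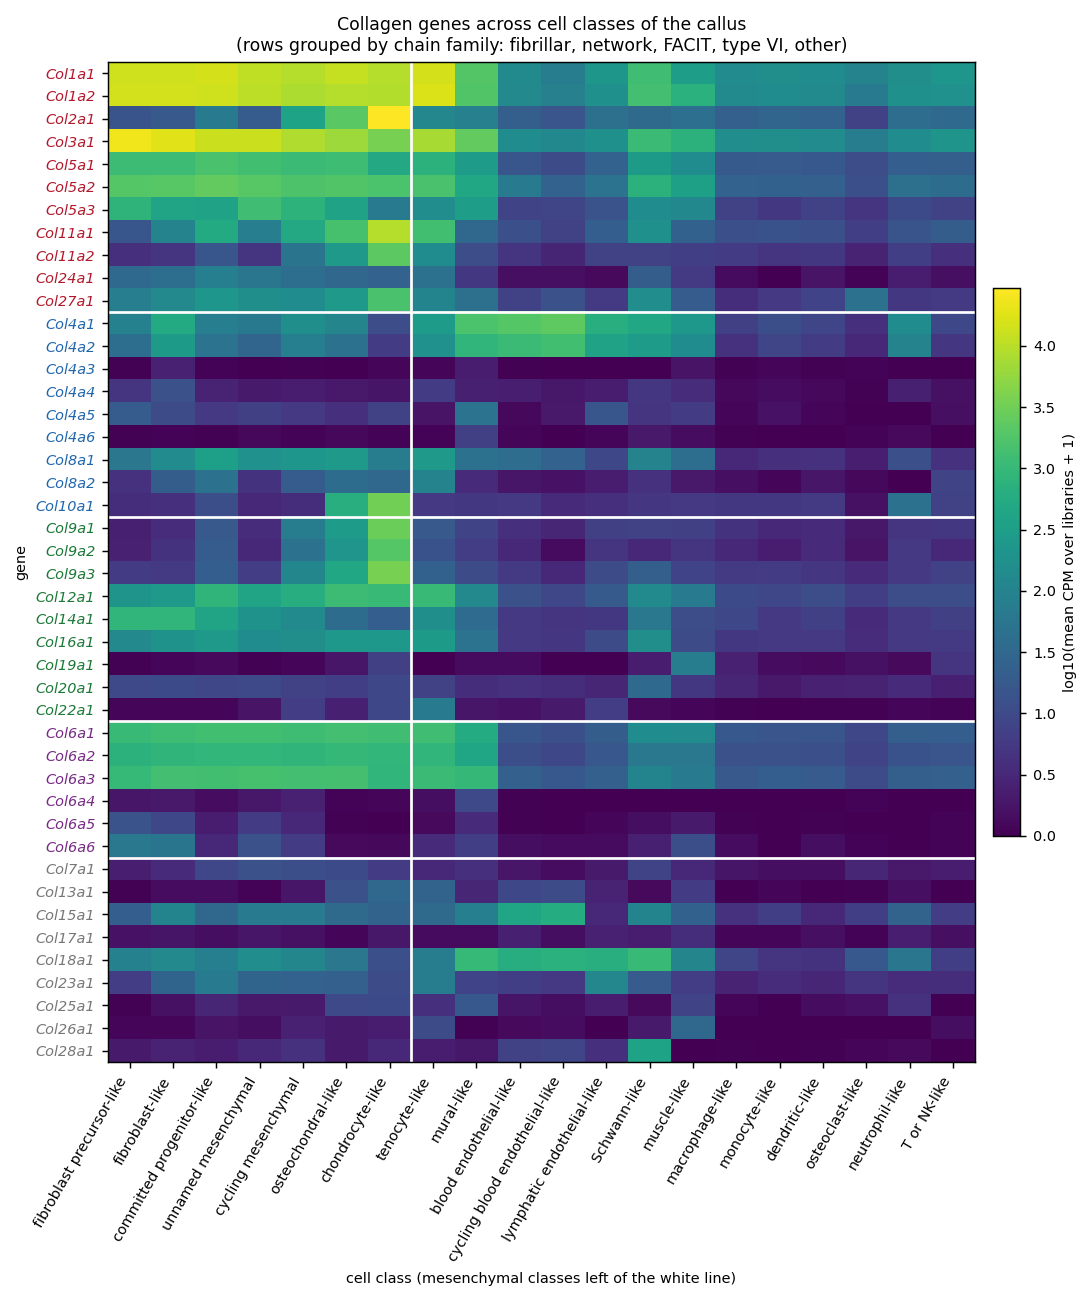
Heat map of the 44 members (rows, by structural group) across the 20 cell classes (columns, mesenchymal classes left of the white line), coloured by the log10 of the mean CPM over libraries plus 1. Types I, III and V and the abundant type VI chains fill the mesenchymal and tenocyte-like columns, the cartilage collagens stand out in the chondrocyte-like column, and Col4a1, Col4a2 and Col18a1 in the endothelial-like, mural-like and Schwann cell-like columns.

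The major fibril chains of connective tissue were broadly spread over mesenchymal cells. Col1a1, which encodes the alpha 1 chain of type I collagen, measured 12804 CPM in control and 11968 CPM in RA at 4 dpf, and 13737 and 15755 CPM at 7 dpf in the mesenchymal sum. Col1a2, its partner chain, measured 12864 CPM in control and 11432 CPM in RA at 4 dpf, and 12397 and 16893 CPM at 7 dpf. Both were at similar levels in tenocyte-like cells, with 9924 to 19376 CPM for Col1a1 and 12453 to 19337 CPM for Col1a2 over the libraries. Col3a1, the chain of type III collagen of loose connective tissue, measured 17510.3 CPM in control and 11418 CPM in RA at 4 dpf, and 13182 and 22168 CPM at 7 dpf. Its level was highest in fibroblast precursor-like cells in all 4 libraries, at 17303 to 31905 CPM, and lower in chondrocyte-like cells, at 3723 CPM in control and 3526 CPM in RA at 7 dpf.

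Type V chains, which start and limit the growth of type I fibrils, were less abundant. In the mesenchymal sum Col5a1 measured 1201 CPM in control and 1095 CPM in RA at 4 dpf, and 1433 and 1270.4 CPM at 7 dpf, and Col5a2 1995 CPM in control and 2003 CPM in RA at 4 dpf, and 2245 and 2159 CPM at 7 dpf. By their mean over libraries these 2 chains were highest in committed progenitor-like cells, at 1391 to 1697 CPM and 2399 to 2594 CPM. Col5a3 had another place and was highest in the unnamed mesenchymal cells in all 4 libraries, at 1251 CPM in control and 528 CPM in RA at 4 dpf and 1216 and 1969 CPM at 7 dpf. Different clusters held most of the unnamed mesenchymal cells in the 7 dpf libraries, a cluster led by Timp1, Serpinb2 and Tnc in control with 145 of 247 cells and a cluster led by Il1rl1 and Dlk1 in RA with 157 of 287 cells. Col24a1, a minor fibril chain of developing bone, was highest in committed progenitor-like cells at 65.2 to 120.3 CPM.

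Cartilage collagens formed the sharpest pattern. Col2a1, the chain of cartilage fibrils, reached 28948 CPM in control and 30061 CPM in RA at 7 dpf in chondrocyte-like cells, and 3654 and 4969.8 CPM in osteochondral-like cells. In these 2 classes a Col2a1 UMI was found, after thinning, in 88.1% and 43.9% of the control cells and in 93.2% and 62.2% of the RA cells. The other fibril chains of cartilage, Col11a1 and Col11a2, measured 8259 CPM in control and 10306 CPM in RA at 7 dpf and 2104 CPM in control and 2382 CPM in RA at 7 dpf in chondrocyte-like cells. Unlike Col2a1, Col11a1 was also high in tenocyte-like cells, at 1130.3 to 1561 CPM, from 4 dpf on. Col27a1, a further cartilage fibril chain, measured 1420 CPM in control and 1644 CPM in RA at 7 dpf in the chondrocyte-like cells. The 3 chains of type IX, a FACIT collagen that covers type II fibrils, followed Col2a1, with 2568 CPM in control and 3174 CPM in RA at 7 dpf for Col9a1, 1693 and 2224 CPM for Col9a2, and 3085 and 4199 CPM for Col9a3. Col10a1, the chain of hypertrophic cartilage, measured 2841 CPM in control and 3817 CPM in RA at 7 dpf in chondrocyte-like cells and 1087 and 1401 CPM in osteochondral-like cells.

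Across the 20 classes, the log2 levels of Col2a1 ran most closely with those of Col9a1 (Pearson's r = 0.991), Col9a2 (0.98) and Col9a3 (0.979), a description over classes that share 4 libraries. Many of these classes are read as background. At 7 dpf each of these genes was above the macrophage-like background in 4 of 7 mesenchymal classes. RNA from 1 source would also make their levels run together, so r is not read as shared expression. The reference promoters of 35 of the 44 members were at hand, as windows that span the transcript start in RefSeq on build GRCm38.p6 (mm10). The 100 bases before the start of 3 cartilage members are printed 5′ to 3′ on the gene's strand, with searched motifs in capitals, because these genes share a class and differ in their motifs. The windows are chr10:34389881-34389980 on the plus strand for Col10a1, chr3:114030440-114030539 on the plus strand for Col11a1 and chr4:121039466-121039565 on the plus strand for Col9a2.
Col10a1: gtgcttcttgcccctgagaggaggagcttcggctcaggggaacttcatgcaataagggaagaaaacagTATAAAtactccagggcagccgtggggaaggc
Col11a1: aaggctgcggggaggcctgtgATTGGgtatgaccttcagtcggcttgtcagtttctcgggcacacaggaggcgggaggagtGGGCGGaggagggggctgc
Col9a2: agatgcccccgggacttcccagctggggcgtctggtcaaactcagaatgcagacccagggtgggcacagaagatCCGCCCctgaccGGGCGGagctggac
The Col10a1 window holds TATAAA, which begins 32 bases before the start. The Col11a1 window holds CCAAT on the other strand, written ATTGG, and GGGCGG. Both GGGCGG and its reverse complement, CCGCCC, stand in the Col9a2 window. Searched on both strands in the 250 bases before the start, TATAAA was present in 5 of 38 collagen windows (13.2%) against 12.4% of all 32851 windows, CCAAT in 13 (34.2%) against 33.8%, GGGCGG in 22 (57.9%) against 32.7% and ACAAAG, a core that SOX factors recognise, in 4 (10.5%) against 16.5%. Those with ACAAAG were Col3a1, Col10a1, Col20a1 and Col28a1, and that of Col10a1 lies outside the bases printed. A match is a description of the letters and not of a bound site.

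Basement membrane chains were highest in vessel cells, but fibroblast-like cells also carried them. Col4a1 measured 1898 CPM in control and 1843 CPM in RA at 4 dpf, and 2309 and 1865 CPM at 7 dpf in blood endothelial-like cells. Col4a2, which encodes the partner chain, measured 1024 CPM in control and 1006 CPM in RA at 4 dpf, and 1324 and 1124 CPM at 7 dpf. Mural-like cells came near these levels, with 1293 to 1875 CPM for Col4a1, while lymphatic endothelial-like cells gave 437 to 878 CPM, fibroblast-like cells 203 to 689.9 CPM and Schwann cell-like cells 400.3 to 531 CPM. Macrophage-like cells had 3.47 to 8.97 CPM. The Col4a1 and Col4a2 genes lie head to head on chromosome 8, and their annotated starts overlap by 22 bases. These bases are shown because the levels of the 2 genes ran close together, with r = 0.997 over 20 classes and a Col4a1 to Col4a2 ratio between 1.32 in dendritic cell-like and 2.23 in fibroblast precursor-like cells. Some of these classes are read as background. The plus strand of GRCm38.p6 at chr8:11312801-11312830 is given, with the overlap in capitals.
Col4a1 and Col4a2 starts: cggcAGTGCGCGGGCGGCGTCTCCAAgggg
Col4a4 and Col4a3 are also head to head, 71 bases apart, as are Col4a6 and Col4a5, 1308 bases apart, but those pairs were at low level. Col4a5, whose chain joins the specialised networks of kidney and smooth muscle, was highest in mural-like cells in all 4 libraries at 42.3 to 59.5 CPM.

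Col15a1, a basement membrane-zone collagen, was highest in cycling blood endothelial-like cells at 395 to 748 CPM, and measured 310 to 556 CPM in the other blood endothelial-like cells but 0.0 to 5.41 CPM in the lymphatic ones. Col18a1, from which endostatin is cleaved, was more evenly spread, with 896 to 1102 CPM in Schwann cell-like cells, 834 to 1071 CPM in mural-like cells, 509.6 to 715 CPM in blood and 494 to 876 CPM in lymphatic endothelial-like cells. These 4 ranges overlap in part, so the order of the classes is not firm. Col28a1, known from peripheral nerve, was almost restricted to Schwann cell-like cells, at 359.7 CPM in control and 443 CPM in RA at 4 dpf and 269 and 505 CPM at 7 dpf. Its second highest class, the cycling blood endothelial-like cells, had 1.91 to 11.4 CPM. Col20a1 was likewise highest in Schwann cell-like cells, at 15.7 to 45.8 CPM, a class of 20 to 185 cells per library.

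Some members with low totals were nevertheless clear in 1 class, while Col23a1, Col25a1 and Col13a1 were less so. Muscle cell-like cells carried Col19a1 at 51.2 to 89.5 CPM, while every other class had a mean of at most 6.1 CPM, and they carried Col26a1 at 23.0 to 43.3 CPM. Tenocyte-like cells carried Col22a1, the collagen of the muscle-tendon junction, at 23.6 CPM in control and 158 CPM in RA at 4 dpf and 21.4 and 67.2 CPM at 7 dpf, higher in RA at both times. Lymphatic endothelial-like cells carried Col23a1, a transmembrane collagen, at 41.3 to 188 CPM. They were its highest class in 3 of 4 libraries, and tenocyte-like cells had a mean of 75.7 CPM. Mural-like cells carried Col25a1, another transmembrane collagen, at 10.1 to 23.9 CPM, but were its highest class in 1 of 4 libraries only. Col13a1, also transmembrane, was found in tenocyte-like cells at 9.45 to 45.2 CPM and in chondrocyte-like cells at 51.4 CPM in control and 8.96 CPM in RA. Col7a1, the anchoring fibril chain, stayed at or below 21.2 CPM in every class and library.

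The remaining FACIT and network chains divided the mesenchymal classes between them. By its mean over libraries, Col12a1 was highest in osteochondral-like cells at 889 to 1543 CPM and next in tenocyte-like cells at 852 to 1555 CPM. The osteochondral-like cells were its highest class in 2 of 4 libraries, and held only 29 control and 26 RA cells at 4 dpf. Col12a1 was low in fibroblast precursor-like cells at 131 to 336 CPM. Col14a1, a related chain of the same group, showed the opposite order, with 734 to 1157 CPM in fibroblast precursor-like and 15.8 to 83.2 CPM in osteochondral-like cells. From UMIs summed over libraries, the Col12a1 to Col14a1 ratio ran from 0.19 in fibroblast precursor-like to 36.4 in chondrocyte-like cells. Col16a1 differed less, at 127 to 418 CPM in tenocyte-like and 213 to 317 CPM in committed progenitor-like cells. Col8a1, a short network chain, was highest in committed progenitor-like cells at 225 to 453 CPM, and Col8a2, its partner, in tenocyte-like cells at 81.2 to 136 CPM.

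Type VI consisted of an abundant and a scarce set. Col6a1, Col6a2 and Col6a3, the chains of the common microfilament, measured 1099 CPM in control and 801 CPM in RA at 4 dpf, and 1522 and 1406 CPM at 7 dpf for Col6a1, 761 CPM in control and 580.5 CPM in RA at 4 dpf, and 1049 and 1009 CPM at 7 dpf for Col6a2 and 1077 CPM in control and 951 CPM in RA at 4 dpf, and 1565 and 1522 CPM at 7 dpf for Col6a3 in the mesenchymal sum. Their levels ran together over the 20 classes, some of them read as background, with r = 0.997 for Col6a1 and Col6a2 and r = 0.992 for Col6a1 and Col6a3. This was not particular to type VI. In the ranking of nearest members used for Col2a1, Col1a2 followed for Col6a1 at r = 0.989, after Col6a2 at 0.996 and Col6a3 at 0.99. Mural-like cells were also well above background, with 805 to 1227 CPM of Col6a3. Col6a4, Col6a5 and Col6a6 encode chains that can take the place of the alpha 3 chain, and their genes lie in a row on chromosome 9, on the same strand, 27917 and 28810 bases apart. Col6a4 was highest in mural-like cells at 5.07 to 11.7 CPM. By their mean over libraries, Col6a5 and Col6a6 were instead highest in fibroblast precursor-like cells, at 2.73 to 39.8 CPM and 31.0 to 126 CPM. They were at most 0.189 and 1.25 CPM in osteochondral-like cells. The 100 bases before the RefSeq start of both genes are shown, because Col6a5 and Col6a6 had the largest ratios of RA to control among the described members in the 7 dpf mesenchymal sum at a pseudocount of 1 CPM, with GGGCGG or its reverse complement in capitals. Both are read on the minus strand, at chr9:105960644-105960743 for Col6a5 and chr9:105828086-105828185 for Col6a6.
Col6a5: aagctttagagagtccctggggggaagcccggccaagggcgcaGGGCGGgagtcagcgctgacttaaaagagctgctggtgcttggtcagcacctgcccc
Col6a6: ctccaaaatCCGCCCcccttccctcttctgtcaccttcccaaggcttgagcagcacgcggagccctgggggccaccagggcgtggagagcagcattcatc
Neither gene's 250-base window held any of the other motifs searched. The RefSeq starts used for Col6a6 and Col9a2 lie inside these genes as the annotation of the files draws them, and the printed Col9a2 window lies wholly inside, so that the 2 sources differ in where they begin.

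RA and control callus at 7 dpf were compared next, to ask how systemic inflammation went together with the collagens of the callus mesenchyme. A gene entered with 50 or more UMIs in the pair of libraries and was measured by the log2 ratio of RA to control CPM, with a pseudocount of 1 CPM, and were called higher or lower past 1.5-fold. Of 43 members measured, 11 were higher in RA (beside 4.94% of all 16895 genes measured) and 12 were lower (beside 5.57%). The median log2 ratio of the members was -0.03 and that of all genes -0.04. By group, 5 of 8 network-forming, 3 of 6 type VI, 1 of 11 fibril-forming, 1 of 9 FACIT and 1 of 9 other members were higher, and 2, 0, 3, 4 and 3 were lower. The 95% intervals given with ratios are exact and cover counting error only.

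Type III, type IV, type XIV and type XV genes were higher in RA. Col3a1 measured 13182 CPM in control and 22168 CPM in RA at 7 dpf, a log2 ratio of 0.75 (interval of the ratio 1.68 to 1.69). Col4a1 measured 105 CPM in control and 285 CPM in RA at 7 dpf, a log2 ratio of 1.43 (2.65 to 2.79), and Col4a2 followed it with 56.3 and 147 CPM and 1.37. Markers of blood endothelial cells, where Col4a1 was highest, summed to 53.8 CPM in the control and 83.4 CPM in the RA mesenchymal sum, with 2 of 6 at 10 CPM or more, and those of mural cells to 37.0 and 62.0 CPM, with 4 of 6 at 10 CPM or more. Their part in the Col4a1 difference was not tested. Col4a4 and Col4a5 were lower in level, with 2.37 and 8.35 CPM (log2 ratio 1.47) and 4.92 and 14.6 CPM (1.4). Col4a3 had 2 UMIs in control and 132 in RA, with an interval of the ratio of 14.4 to 443. Col14a1 measured 413 CPM in control and 838 CPM in RA at 7 dpf (1.02) and Col15a1 44.9 and 117 CPM (1.36). With every class weighted equally, Col3a1 was at 0.42 and Col4a2 at 0.44, no longer past 1.5-fold.

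The scarce type VI chains had the largest ratios of the described members in this sum at a pseudocount of 1 CPM. Col6a5 measured 2.22 CPM in control and 19.7 CPM in RA at 7 dpf, from 158 and 1746 UMIs, a log2 ratio of 2.69 (interval of the ratio 7.56 to 10.5). Col6a6 measured 15.2 CPM in control and 79.3 CPM in RA at 7 dpf, a log2 ratio of 2.31 (4.9 to 5.57). With a pseudocount of 10 CPM the log2 ratio of Col6a5 was 1.28, since its level is low, that of Col6a6 was 1.83 and that of Col4a1 was 1.36. Their macrophage-like levels, at most 0.292 and 1.31 CPM at 7 dpf, were far below these. Col6a4 had 41 and 123 UMIs and a log2 ratio of 0.6. With a pseudocount of 10 CPM the low members Col4a3, Col4a4 and Col6a4 were at 0.2, 0.57 and 0.11, none past 1.5-fold. The abundant chains differed by less than 1.5-fold, with log2 ratios of -0.11, -0.06 and -0.04 for Col6a1, Col6a2 and Col6a3.

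Cartilage collagens were lower in the RA mesenchymal sum at 7 dpf. Col2a1 measured 2151 CPM in control and 995 CPM in RA at 7 dpf, a log2 ratio of -1.11 (interval of the ratio 0.459 to 0.467). Col11a1 measured 1132 CPM in control and 514 CPM in RA at 7 dpf (-1.14), and Col11a2, Col9a1, Col9a2, Col9a3 and Col10a1 had log2 ratios of -1.03, -0.88, -0.78, -0.72 and -0.74. The share of chondrocyte-like cells in the sum was 4.84% in control and 2.12% in RA, and that of osteochondral-like cells 7.15% and 2.57%. Within chondrocyte-like cells the log2 ratios were 0.05 for Col2a1, 0.31 for Col9a1, 0.44 for Col9a3, 0.43 for Col10a1 and 0.32 for Col11a1, all above 0 and none past 1.5-fold. Within osteochondral-like cells they were 0.44 for Col2a1, 0.37 for Col10a1 and 0.22 for Col11a1, and the type IX genes were past 1.5-fold higher, at 0.65, 0.89 and 0.83 for Col9a1, Col9a2 and Col9a3. Committed progenitor-like cells differed from both, with lower Col2a1 at 181 and 100 CPM (-0.85) and lower Col11a1 at 1086 and 460.3 CPM (-1.24), while macrophage-like cells carried 43.6 and 45.2 CPM of Col2a1. With every class weighted equally, Col10a1 and Col9a3 turned to 0.56 and 0.07, and Col2a1, Col11a2, Col9a1 and Col9a2 were at -0.2, -0.25, -0.11 and -0.23. Equal weights also count classes at background, and Col10a1 was above the macrophage-like background in 2 of 7 classes. The cartilage collagens were thus lower in the RA sum while none of those named was past 1.5-fold lower within the chondrocyte-like or osteochondral-like cells. Over all 7 classes, Col11a1 was lower in 4, 2 of them above background, and higher in none. Col2a1 was lower in 3, 2 of them above background, and higher in 1, at background. Col9a1, Col9a2 and Col9a3 were each lower in 2 classes and higher in 1, 1 and 2.

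Members of other types were lower in RA as well. Col12a1 measured 817 CPM in control and 366 CPM in RA at 7 dpf, a log2 ratio of -1.16 (interval of the ratio 0.441 to 0.453). Col8a1 measured 284 CPM in control and 155 CPM in RA at 7 dpf (-0.87). Col7a1 measured 11.2 and 4.76 CPM (-1.08). Col13a1 measured 6.43 and 0.679 CPM (-2.15), from 458 UMIs in control and 60 in RA, and Col25a1 had 163 and 53 UMIs (-1.04). Without the chondrocyte-like and osteochondral-like cells, Col13a1 was at -0.17 and Col25a1 at -0.5, neither past 1.5-fold, and with a pseudocount of 10 CPM Col7a1 was at -0.52. For Col1a1, Col1a2, Col5a1 and Col5a2, the main fibril chains besides Col3a1, the log2 ratios were 0.2, 0.45, -0.17 and -0.06, none of them past 1.5-fold.

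**Figure D3:**
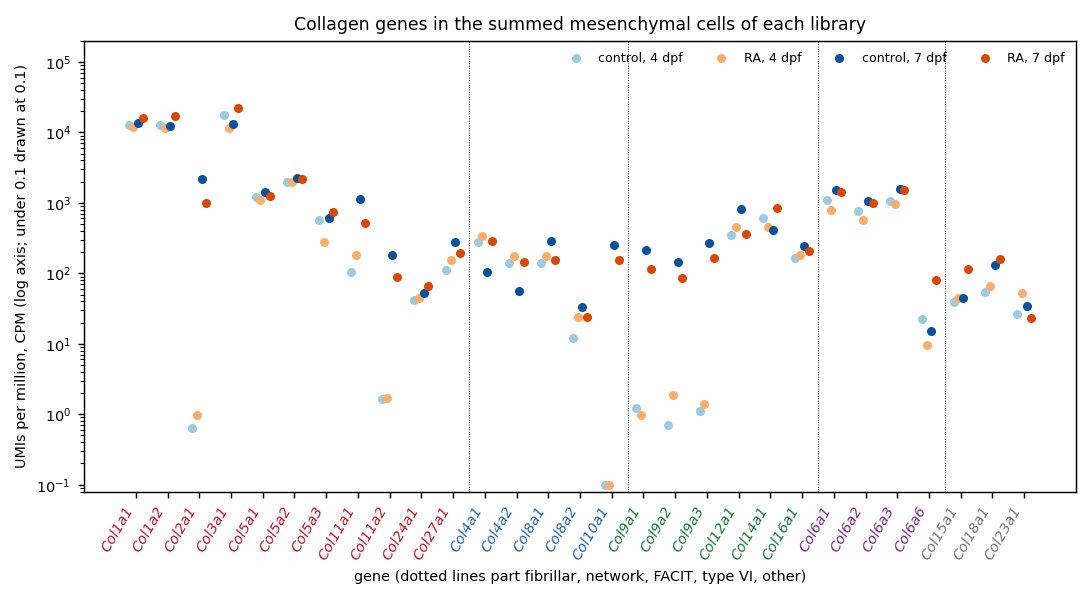
Level in the mesenchymal sum of each library (y axis, CPM on a log axis, with levels under 0.1 CPM drawn at 0.1) of the members that reached 20 CPM in that sum (x axis, by structural group), with 1 point per library. Col6a6 shows the wide gap between control and RA at 7 dpf, 15.2 and 79.3 CPM, and the cartilage collagens Col2a1, Col9a1 and Col10a1 the gap between 4 and 7 dpf.

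**Figure D4:**
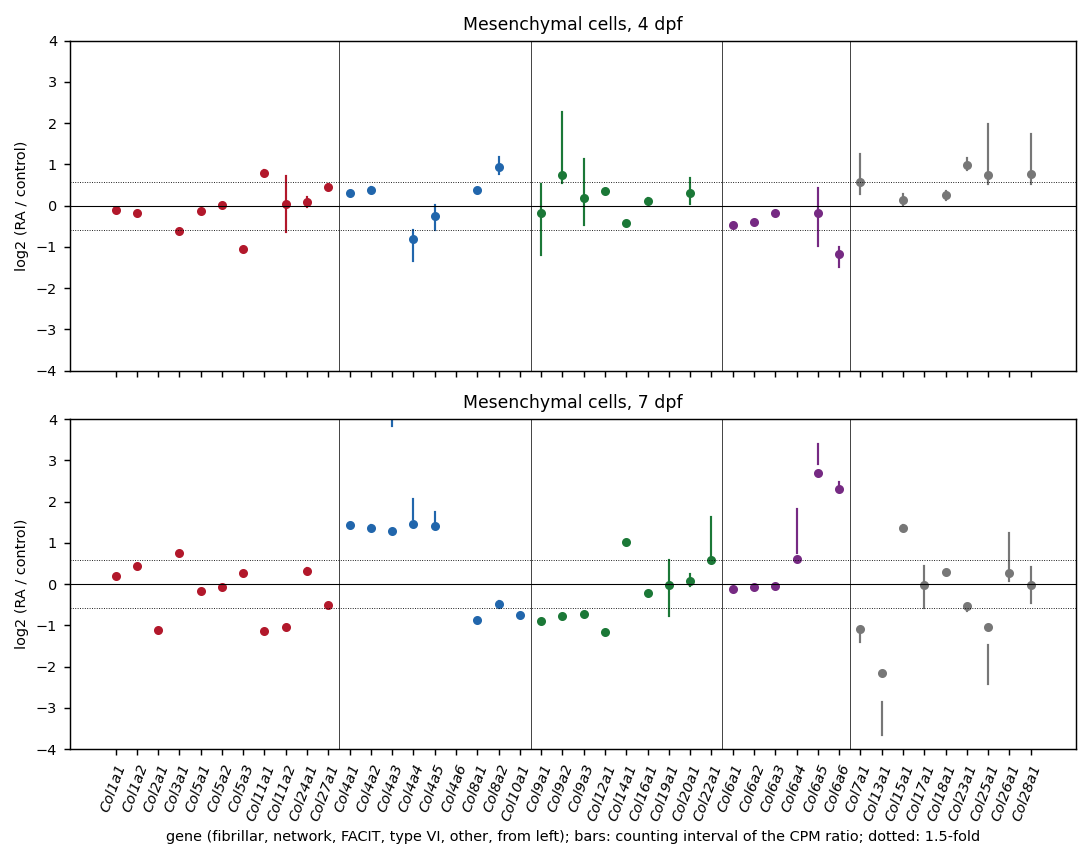
Log2 ratio of RA to control CPM in mesenchymal cells (y axis) for each member measured (x axis, by structural group) at 4 dpf (upper panel) and 7 dpf (lower panel), with bars for the 95% counting interval of the ratio and dotted lines at 1.5-fold. Points use a pseudocount of 1 CPM and bars do not, so that points of low genes lie nearer 0 than their bars, the bar of Col4a3 leaves the axis, and Col6a5 at 2.69 and Col13a1 at -2.15 mark the ends at 7 dpf.

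The same comparison was made within each of the 7 mesenchymal classes at 7 dpf, all of which had at least 74 cells per library. Class membership depended on integration. Without integration the fibroblast-like class held 185 control and 1056 RA cells at 7 dpf, and the fibroblast precursor-like class 409 and 1224. The within-class ratios given here are those of the integrated clustering only. In fibroblast-like cells, the largest class with 964 and 1603 cells, 11 of 38 members were higher in RA (background 4.53%) and 4 were lower (3.3%). Committed progenitor-like cells gave 12 higher and 9 lower of 35 (5.27% and 5.0%). Fibroblast precursor-like cells gave 6 and 4 of 32 (5.99% and 8.14%), and unnamed mesenchymal cells 9 and 10 of 33 (8.29% and 8.56%). Most unnamed mesenchymal cells came from different clusters in control and RA, so the ratios of this class set unlike cells side by side. Chondrocyte-like cells gave 3 and 5 of 31 (5.63% and 6.54%), osteochondral-like cells 5 and 3 of 30 (8.43% and 5.3%), and cycling mesenchymal cells 7 and 3 of 30 (8.41% and 4.82%).

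Col6a5 and Col6a6 were higher in RA in each of the 4 classes in which they could be measured. A gene entered a class by the UMIs of both libraries together, so a high level in RA alone could bring it in. The count of classes is thus not independent of the direction. Col6a6 measured 30.6 and 124 CPM in fibroblast-like, 53.2 and 126 CPM in fibroblast precursor-like and 0.507 and 6.98 CPM in committed progenitor-like cells of control and RA. The corresponding levels of Col6a5 were 4.21 and 23.5 CPM, 5.25 and 39.8 CPM, and 0.66 and 3.34 CPM. Col4a5 was higher in 4 of 4 classes, with log2 ratios of 0.85 to 1.52. Col14a1 and Col15a1 were each higher in 5 of 7 classes. For Col14a1 the exceptions were fibroblast-like cells, at 767 and 1056 CPM, and chondrocyte-like cells, and for Col15a1 the chondrocyte-like and osteochondral-like cells.

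Col4a1 was not uniform. It was 203 CPM in control and 567 CPM in RA in fibroblast-like cells (log2 ratio 1.48), but 54.7 and 35.6 CPM in osteochondral-like cells (-0.61). In blood endothelial and mural-like cells, where it was most abundant, its log2 ratios were -0.31 and -0.33, neither past 1.5-fold. Col3a1 was past 1.5-fold in 2 of 7 classes, the committed progenitor-like cells at 10809 and 17436 CPM and the unnamed mesenchymal cells at 11033 and 22033 CPM. The latter class was filled mostly from different clusters in control and RA, so its ratio is not one within a single kind of cell. In fibroblast-like and fibroblast precursor-like cells its log2 ratios were 0.42 and 0.5, and fibroblast precursor-like cells, its highest class, were 10.3% of the control and 18.7% of the RA mesenchymal cells.

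Col12a1 and Col8a1 were each lower in RA in 4 of 7 classes. Col12a1 measured 442 and 199.6 CPM in fibroblast-like cells of control and RA (log2 ratio -1.14) and 1236 and 679 CPM in committed progenitor-like cells (-0.86). Its lowest ratio, -1.35, was in fibroblast precursor-like cells, and its chondrocyte-like and osteochondral-like ratios were -0.31 and -0.27. Col8a1 measured 131 and 24.0 CPM in fibroblast precursor-like cells (-2.4) but 58.4 and 94.3 CPM in chondrocyte-like cells (0.68). Col13a1 was lower in both classes with enough UMIs, chondrocyte-like cells at 51.4 and 8.96 CPM and osteochondral-like cells at 40.1 and 6.69 CPM. These classes entered by the UMIs of both libraries together, so a high level in control alone could bring them in. Col5a1, Col5a2, Col6a1, Col6a2, Col6a3, Col16a1 and Col27a1 were past 1.5-fold in none of the 7 classes.

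**Figure D5:**
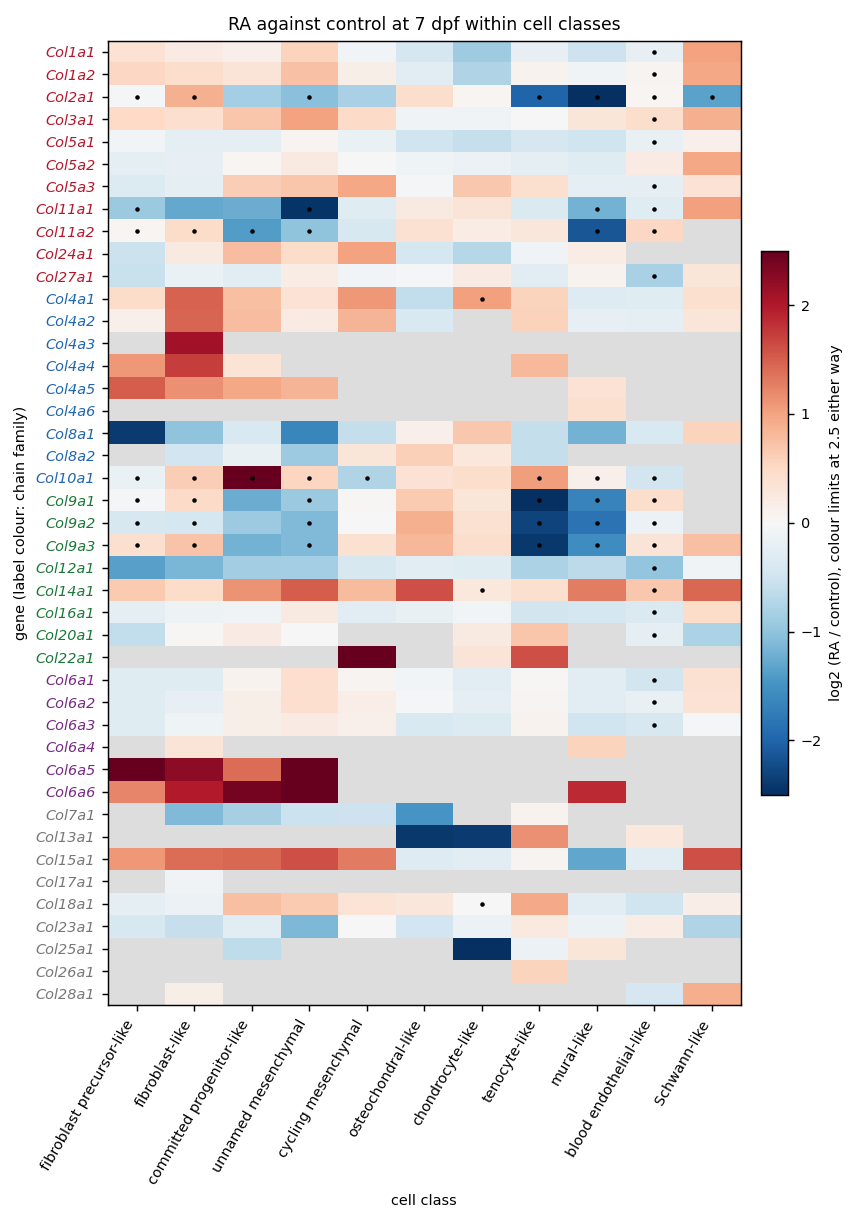
Log2 ratio of RA to control CPM at 7 dpf (colour, limited at 2.5 either way) for each member measured in any of them (rows) in the 7 mesenchymal classes and the tenocyte-like, mural-like, blood endothelial-like and Schwann cell-like cells (columns), with grey where both libraries together had under 50 UMIs and a black dot where a level was under 2 times the macrophage-like level of its library. Col6a5 and Col6a6 are positive in the 4 mesenchymal classes in which they were measured, from 1.23 to 3.35, and Col12a1 is negative in all 7. The value of 3.35 is that of the unnamed mesenchymal cells, most of which came from different clusters in control and RA.

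At 4 dpf the callus held little cartilage and fewer members were called. Of 34 measured in the mesenchymal sum, 6 were higher in RA (background 4.31%) and 4 were lower (2.85%), with a median log2 ratio of 0.10 against 0.03 for all 13805 genes. Col3a1 was lower, at 17510.3 CPM in control and 11418 CPM in RA (log2 ratio -0.62). Col5a3 was lower at 573 and 276 CPM (-1.05), and so were Col6a6 at 22.8 and 9.66 CPM (-1.16) and Col4a4 at 7.56 and 3.88 CPM (-0.81). Col11a1 was higher, at 105 and 183 CPM (0.79), as was Col23a1 at 26.1 and 52.6 CPM (0.99) and Col8a2 at 12.1 and 23.9 CPM (0.93). The other higher members, Col9a2, Col25a1 and Col28a1, were at or below 3.19 CPM. Fibroblast precursor-like cells, the highest class by mean for Col3a1 and Col6a6, were 21.1% of the mesenchymal cells of control and 9.26% of those of RA at this time. Fibroblast-like cells, near them for Col6a6 with means of 53.5 and 60.6 CPM, were 40.2% and 41.2%. The 4 erythroid markers summed to 462 CPM in the control and 23.2 CPM in the RA sum, and the 5 neutrophil markers to 20.5 and 142 CPM. Their part in these differences was not tested. At a 2-fold limit none of the members was higher, and Col5a3 and Col6a6 were lower.

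Both conditions had far more cartilage collagen at 7 than at 4 dpf. These comparisons use the same 4 libraries as those of RA with control and are not independent of them. In control, 16 of 40 members were higher at 7 dpf (background 6.67%) and 4 were lower (4.71%). In RA, 21 of 42 were higher (5.57%) and 3 were lower (4.63%). Col2a1 measured 0.63 CPM at 4 dpf and 2151 CPM at 7 dpf in control, from 16 and 153100 UMIs, and 0.971 and 995 CPM in RA. Col10a1 had no UMI in 804 mesenchymal cells of control at 4 dpf and 255 CPM at 7 dpf, and was thus at least 2159-fold higher when 3 counts are set as the floor at 4 dpf, a limit for counting error only. In RA it had 1 UMI at 4 dpf and 13491 UMIs at 7 dpf. Col9a1, Col9a2, Col9a3 and Col11a2 were each at most 1.85 CPM in either 4 dpf sum and at least 84.8 CPM in either 7 dpf sum.

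Col11a1 and Col27a1 were already present at 4 dpf, unlike the rest of the cartilage set. Col27a1 measured 112 CPM at 4 dpf and 275 CPM at 7 dpf in control, and 154 and 193 CPM in RA. Col11a1 measured 105 CPM at 4 dpf and 1132 CPM at 7 dpf in control (log2 ratio 3.41), and 183 and 514 CPM in RA (1.49). Committed progenitor-like cells already held 232 CPM of Col11a1 in control and 403 CPM in RA at 4 dpf, against 0.308 and 2.16 CPM of Col2a1. Tenocyte-like cells at 4 dpf held low Col2a1, 18.4 and 18.0 CPM in control and RA, when the macrophage-like level was at most 0.0496 CPM.

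Outside cartilage, the courses of control and RA can be set side by side. Col3a1 measured 17510.3 and 13182 CPM at 4 and 7 dpf in control (log2 ratio -0.41) and 11418 and 22168 CPM in RA (0.96). Col4a1 was lower at 7 dpf in control, from 276 to 105 CPM (-1.39), and measured 339.9 and 285 CPM in RA (-0.26). Col4a2, Col4a4 and Col4a5 were the other members lower in control, but with the classes weighted equally no member was. Col6a6 had 22.8 and 15.2 CPM in control (-0.56) and 9.66 and 79.3 CPM in RA (2.91). Col5a3 was higher at 7 dpf in RA, from 276 to 732 CPM (1.4), while control had 573 and 601 CPM. Col12a1 was higher at 7 dpf in control, from 354 to 817 CPM (1.21), and RA had 454 and 366 CPM (-0.31). Col18a1 was higher at 7 dpf in both, with log2 ratios of 1.26 and 1.29. Whether control and RA differed in these courses could not be tested with 1 library each.

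The ratio between chains of 1 type was narrow for some pairs and wide for others over the 20 classes, which include classes read as background. The Col1a1 to Col1a2 ratio in the mesenchymal sum was 0.995 in control and 1.05 in RA at 4 dpf and 1.11 and 0.933 at 7 dpf, and over classes it ran from 0.455 in muscle cell-like to 1.34 in lymphatic endothelial-like cells. Muscle cell-like cells had 128 CPM of Col1a1 and 829 CPM of Col1a2 in control at 4 dpf, and 48.3 and 662 CPM in RA. Macrophage-like cells in those libraries had 84.3 and 77.6 CPM in control and 55.7 and 49.3 CPM in RA, so that Col1a2 but hardly Col1a1 was above the macrophage-like level in the muscle cell-like cells. The Col5a1 to Col5a2 ratio ran from 0.218 to 0.872, and that of Col8a1 to Col8a2 from 0.477 to 41.4 in the 15 classes with enough UMIs. The ratio of Col11a1 to Col5a1, whose chains can enter the same fibrils, varied most, from 0.0117 in fibroblast precursor-like to 13.6 in chondrocyte-like cells.

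Of the 47 enzyme and receptor genes that serve collagens and were measured at 7 dpf, 3 (6.38%) were higher in RA and 4 (8.51%) were lower, beside 4.94% and 5.57% of all genes, which is near the background. In the mesenchymal sum none of 15 hydroxylation and glycosylation genes was higher in RA and 2 were lower, P3h2, a prolyl 3-hydroxylase, at 33.0 and 10.9 CPM in control and RA (log2 ratio -1.52) and Plod2, the lysyl hydroxylase of telopeptides, at 350.4 and 213 CPM (-0.71). None of 9 folding and export genes was past 1.5-fold, and the median log2 ratios of these 2 lists were -0.39 and -0.17, beside -0.04 for all genes. Of 7 propeptide cleavage genes, Adamts2, the procollagen N-proteinase, was higher at 226 and 353 CPM (0.64) and Adamts3 lower at 76.2 and 49.1 CPM (-0.62). Of 7 crosslinking genes, Loxl3, a lysyl oxidase, was lower at 92.0 and 51.6 CPM (-0.82). Ddr2, a collagen receptor kinase, was higher at 167 and 266 CPM (0.67), and so was Itga2, an integrin chain below 20 CPM, at 2.12 and 3.83 CPM (0.63), which was named after its values were seen. None of the 9 measured receptors was lower. Genes of these lists at 20 CPM or more that were not past 1.5-fold included Fkbp10 (-0.57), Itga11 (-0.5), Itga1 (0.34), Bmp1 (0.33), Loxl2 (-0.32), Creb3l2 (-0.32), Sparc (0.3) and Mia3 (0.13). At 4 dpf 2 of 46 genes of these 5 lists were higher (4.35%, beside 4.31% of all genes) and 4 were lower (8.7%, beside 2.85%).

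Cells outside the mesenchymal sum were compared at 7 dpf as well. In tenocyte-like cells 6 of 35 members were higher in RA (background 5.36%) and 7 were lower (3.77%). Col22a1 was higher at 21.4 and 67.2 CPM (log2 ratio 1.61), and Col18a1 at 61.9 and 119 CPM (0.94). Col12a1 was lower at 1555 and 897 CPM (-0.79), and Col2a1 at 348 and 85.7 CPM (-2.01), the latter under 2 times the macrophage-like level of 45.2 CPM. In mural-like cells 2 of 32 members were higher (5.22%) and 9 were lower (3.46%). Col15a1 in mural-like cells measured 166 and 67.4 CPM (-1.29), opposite in direction to the mesenchymal sum, while Col6a6 measured 3.12 and 14.1 CPM (1.87).

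Blood endothelial-like cells had 1 of 29 members higher (3.85%) and 2 lower (3.61%), all at 23.3 CPM or less. Lymphatic endothelial-like cells, 98 in control and 147 in RA, had 1 of 16 higher (6.08%) and 11 lower (5.29%), with a median log2 ratio of -0.83. The higher member was Col23a1, at 41.3 and 129 CPM (1.62). Among the lower ones Col1a1 measured 534 and 185 CPM, beside 226 and 213 CPM in macrophage-like cells, and all 11 were under 2 times the macrophage-like level in RA. Muscle cell-like cells had 5 of 31 higher (9.31%) and 10 lower (10.7%), with Col4a1 at 196 and 417 CPM (log2 ratio 1.08). Schwann cell-like cells had 9 of 24 higher (9.72%) and 3 lower (7.76%), from 64 control and 185 RA cells. Col28a1, a gene highest in this class, measured 269 and 505 CPM (0.9), and Col1a1 1329 and 2652 CPM (1.0).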

How the data were processed

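Single cells of tibial fracture callus were profiled in 4 libraries, 1 per condition. The deposited tables hold UMI counts per gene and barcode, which per the labels the authors made with Cell Ranger 7.0.1 on mm10. Of 34038 barcodes, 25479 were kept, with 4000 to 50000 UMIs, 2000 to 7000 features and at most 8% mitochondrial UMIs. Libraries were integrated in Seurat 5.3.0 (R 4.3.3) by canonical correlation over 2000 variable genes without collagens and 30 dimensions, and clustered on 15 principal components at resolution 1. Mixed clusters were split at resolution 0.5. This gave 37 clusters, of which 31 were named from marker lists, and 20 classes of at least 50 cells. Naming limits and the splitting were set with the clusters in view. Doublets called by Scrublet (scanpy 1.11.5) in 0.88% to 3.6% of the cells of a library were kept, and left out as an alternative.

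UMIs were summed per class and library, with at least 20 cells each. Ratios used a pseudocount of 1 CPM and genes with 50 UMIs or more, and were called past 1.5-fold. The 95% intervals are exact for a ratio of 2 Poisson counts and cover counting error only. No test was possible with 1 library per condition. The code was tested on simulated data. Described by value were members with 20 CPM or more in a class and library, and of the enzyme and receptor lists the genes with the largest ratios at 7 dpf. Col4a3, Col4a4 and Col6a4, which are below that level, were named after their values were seen. The members and lists were chosen with earlier results of these data known. Shares of cells with a UMI were taken after thinning to 4000 UMIs.

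Promoters came from RefSeq on GRCm38.p6 and were found for 35 of 44 members. Col1a1, Col2a1, Col5a2, Col4a3, Col9a3, Col12a1, Col14a1, Col22a1 and Col26a1 were not among them.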

Additional observations from a re-analysis of the deposited data

Results flagged for a closer look

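In the mesenchymal sum, 6 members lay past 1.5-fold in opposite directions at 4 and 7 dpf when RA was compared with control. The log2 ratio of Col3a1 was -0.62 at 4 dpf and 0.75 at 7 dpf. Col6a6 was at -1.16 and 2.31, and Col4a4 at -0.81 and 1.47. Col11a1 went the other way, with 0.79 and -1.14, as did Col9a2 with 0.74 and -0.78 and Col25a1 with 0.74 and -1.04. With a pseudocount of 10 CPM the 4 dpf ratios of Col9a2, Col25a1 and Col4a4, all below 8 CPM at that time, were 0.15, 0.16 and -0.34, no longer past 1.5-fold, and those of Col4a4 and Col25a1 at 7 dpf were 0.57 and -0.21. Col11a1 was at 0.52 at 4 dpf without integration. With classes weighted equally, Col3a1 was at 0.42 and Col9a2 at -0.23 at 7 dpf, Col9a2 at 0.07 and Col25a1 at 0.52 at 4 dpf and Col25a1 at -0.55 at 7 dpf. Without the chondrocyte-like and osteochondral-like cells, Col25a1 was at -0.5 at 7 dpf. In the sum, Col6a6 stayed past 1.5-fold at both times in each of these alternatives. Within fibroblast precursor-like cells at 4 dpf, however, none of the 4 type VI members measured, Col6a6 among them, was past 1.5-fold. Their log2 ratios were -0.28 to 0.05. Within fibroblast-like cells at 4 dpf, 1 of 4 type VI members was lower in RA, and the lowest ratio was -1.32. Each time point had 1 library per condition, so the difference between the times was not tested. Fibroblast precursor-like cells, the highest class by mean for Col3a1 and Col6a6, were 21.1% of control and 9.26% of RA mesenchymal cells at 4 dpf and 10.3% and 18.7% at 7 dpf. Fibroblast-like cells came near them for Col6a6, with means of 53.5 and 60.6 CPM. They were 40.2% of control and 41.2% of RA mesenchymal cells at 4 dpf and 34.8% and 45.8% at 7 dpf. The part of these 2 classes in the opposite directions was not tested.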

How the results depend on the processing

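With 1 library per condition no value has a replicate error. The floor of 3 UMIs was 0.0339 to 0.139 CPM in the mesenchymal sums, and differences below it were not detectable. No paired analysis was possible because each group holds 1 library and no test was run. Over all alternatives, called members of at least 20 CPM in a class and library kept their sign in 237 of 240 values for RA against control at 7 dpf, 106 of 107 at 4 dpf, 223 of 225 for control and 263 of 264 for RA between the times, and stayed past 1.5-fold in 226, 90, 210 and 253. These members were chosen as called in the same libraries, and some alternatives, such as a larger pseudocount, cannot change a sign. The counts thus describe the processing only and not how far a result would repeat.

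At 4 dpf the 6 members higher in RA became 2 without integration, 3 with a pseudocount of 10 CPM and 0 at a 2-fold limit, which left 2 lower instead of 4. At 7 dpf the 12 lower members became 7 at 2-fold and 5 with classes weighted equally. From 4 to 7 dpf, the 4 members lower in control became 1 with looser cell limits, 2 with a pseudocount of 10 CPM and 0 with equal weights, and the 3 lower in RA became 1 with a pseudocount of 10 CPM.

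The log2 ratio of the collagen share in RA against control was -0.28 at 4 dpf and 0.31 at 7 dpf. At 4 dpf it was -0.18 with looser limits, -0.27 without integration, at resolution 0.5 and without doublets, and -0.3 with tenocyte-like cells. At 7 dpf it was 0.32 with looser limits and with collagens among the variable genes, 0.29 without integration, 0.3 at resolution 0.5, 0.31 without doublets, 0.27 with tenocyte-like cells and 0.38 without chondrocyte-like and osteochondral-like cells. That last alternative was chosen after seeing the data.

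Equal weights turned Col10a1 to 0.56 and Col9a3 to 0.07 at 7 dpf, and from 4 to 7 dpf in control Col4a5 to 0.13 and the median of the network-forming members to 0.13. Col10a1 was at 1.41 without chondrocyte-like and osteochondral-like cells. With tenocyte-like cells, Col22a1 turned to -0.2 in control and -0.56 in RA from 4 to 7 dpf. In these alternatives only the cells that enter the sum or their weights differ. Col10a1 was above the macrophage-like background in 2 of 7 mesenchymal classes at 7 dpf. The part of the other classes in its turns was not tested.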
